A study of Mus musculus with 13 samples.

Results

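The mouse serpins are the genes whose symbols join Serpin, a clade letter from a to i, a number and an optional last letter, and 62 of the 23364 genes with an FPKM value had such a symbol. FPKM is the number of reads on a gene divided by its length and by the total reads of the sample, so levels of different genes can be set side by side. Of the 62, 20 reached 1 FPKM in at least 1 sample and 42 never did, and the latter were counted as not expressed. Whole submandibular salivary glands of C57BL/6 mice were taken for RNA-seq at embryonic days E14.5 (3 samples), E16.5 (2) and E18.5 (2), at postnatal day 5 (P5, 2 samples) and at the adult ages 4wk and 12wk (2 each). An E14.5 library held glands pooled from 3 embryos, and those from E16.5 and E18.5 glands pooled from 2. No engineered allele or treatment is named for them in the sources used here. The mice at 4wk and 12wk were male. By the methods, sex was not ascertained at the earlier ages, whereas the main text of the study calls the P5 animals male as well, so age and sex cannot be told apart in the comparisons with the adult. The 7 embryonic samples formed the embryo stage, the 2 P5 samples the neonatal stage and the 4 older samples the adult stage.

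Most serpins trap a protease. The target cuts a loop exposed on the serpin, the serpin folds over, and both proteins stay locked together and are cleared. The letter of a symbol names the clade. Clades A, C, D, F and G are mainly secreted plasma proteins from the liver, clade B serpins stay mostly inside the cell, clade E holds inhibitors bound to the matrix and cell surface such as protease nexin-1, clade H is the collagen chaperone HSP47, and clade I holds the neuroserpins. A few members, HSP47 among them, inhibit no protease.

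The reads assigned to genes, computed from the steps between low FPKM values, ran from 5817293 in 4wk replicate 1 to 48314162 in P5 replicate 1, and 1 read on a gene of 1 kilobase was worth between 0.0207 and 0.1719 FPKM. Both 4wk samples were shallow, with 5817293 and 7957918 reads. The 10 most abundant genes took 48.1% to 61.1% of the summed FPKM in the adult samples and at most 31.1% in the others, which lowers the FPKM of all other genes there. Markers of the gland were present. The granular duct genes Egf, Ren1 and Klk1 summed to 14200 to 19100 FPKM in the adult and 4.58 to 116 in the embryo. Ren1 was at 0 in 12 of the 13 samples. The acinar list (Aqp5, Bhlha15, Muc19 and Smgc) summed to 1.25 to 19800 FPKM in the embryo. It reached 43300 and 47700 FPKM at P5 and was at 309 to 600 FPKM in the adult. By the thresholds given below, 2 of these 4 acinar genes rose from embryo to adult and 0 fell. The sum therefore does not stand for each gene of the list. Replicates of a time point differed by more than the sampling noise in every pair.

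The summed FPKM of the 62 serpins was 725.2 ± 97.93 (SD, n = 3) at E14.5, and then 589.0 ± 30.48 for E16.5, 500.2 ± 9.546 for E18.5, 386.4 ± 3.111 for P5, 460.7 ± 78.56 for 4wk and 649.3 ± 71.98 for 12wk (SD, n = 2 each). On the deposited FPKM it was lowest at P5, and the E14.5 and 12wk sums were of like size, but different genes made them. As a share of the FPKM of all genes, the serpin sum was instead lowest at 4wk. That share was higher at E14.5 than at 12wk, with no overlap of the samples. Serpinh1, the collagen chaperone, made 64.7% to 68.8% of the sum at E14.5, 34.0% and 32.2% at P5, and 3.37% and 2.35% at 12wk. Serpinb6a, a cytosolic inhibitor of trypsin-like proteases and cathepsin G, made 8.58% to 9.26% at E14.5 and 68.2% and 70.4% at 12wk. The most abundant serpin was Serpinh1 in each of the 9 embryonic and P5 samples and Serpinb6a in each of the 4 adult samples.

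**Figure D1:**
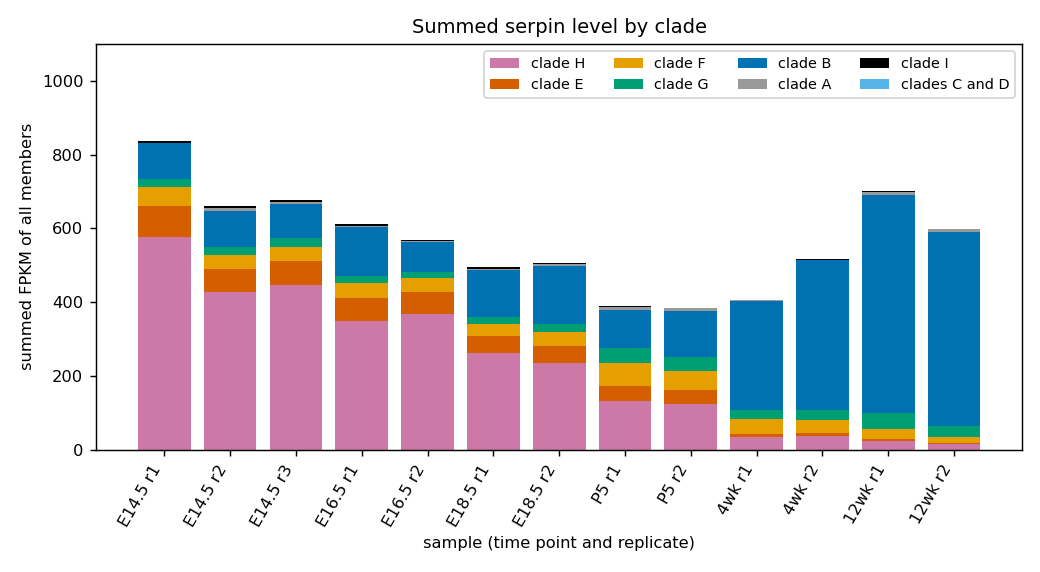
Summed FPKM of the serpins in each sample, stacked by clade, with 1 bar per sample and a linear axis from 0. Clade H, which is Serpinh1 alone, makes 576 FPKM of the first E14.5 bar, and clade B makes 592 and 525 FPKM of the 12wk bars.

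By clade, 4 of 24 clade A genes, 10 of 27 clade B genes, 2 of 3 clade E genes, 1 of 2 clade F genes, the single clade G and clade H genes and 1 of 2 clade I genes were expressed, and the single genes of clades C and D were not. This is 32.3% of the members, while 62.7% of all genes reached 1 FPKM in a sample. The unexpressed genes lay mostly in 3 arrays of neighbours in mm9. The clade A array on chromosome 12, chr12:104854885-105652539, held 23 members of which 4 were expressed. The clade B array of chromosome 1, chr1:108757750-109505486, held 11 with 4 expressed, and that of chromosome 13, chr13:32933961-34094663, held 15 with 5 expressed. In clade A the expressed genes were Serpina3c, Serpina3g, Serpina3h and Serpina3n, so no antitrypsin gene (Serpina1a to Serpina1f) was among them.

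At the limit of 1 FPKM, the highest values of the unexpressed genes were 0.984 FPKM for Serpinc1 (antithrombin, E14.5 replicate 1) and 0.902 for Serpina9 (E16.5 replicate 2), and the lowest maxima of the expressed genes were 1.0 for Serpina3c (P5 replicate 1) and 1.14 for Serpinb10 (P5 replicate 2). The limit therefore separates genes of nearly equal level. Serpinb7, Serpine3, Serpina1e, Serpinb3a, Serpind1 (heparin cofactor) and Serpina10 (an inhibitor of coagulation factor Xa) came next, each with a maximum of at least 0.514 FPKM, and Serpina3i, Serpina1b, Serpinb3d, Serpina3f, Serpina12, Serpina6, Serpinb9b, Serpina1a, Serpina3m, Serpinb3b, Serpinb2, Serpinb3c, Serpinb6c, Serpinb9e and Serpina3b had maxima of at least 0.104. Serpinf2 (antiplasmin), Serpina3k, Serpina1d, Serpinb1c, Serpinb13, Serpina7, Serpina1c, Serpini2, Serpinb9f, Serpinb9g, Serpina11, Serpinb9d, Serpina3a and Serpinb9c stayed under 0.0881 FPKM. No read was assigned to Serpina1f, Serpina3j, Serpina5, Serpinb6d or Serpinb6e in any sample. The authors left out reads that mapped to more than 1 place or gene, so genes with near-identical copies (the Serpina1, Serpina3, Serpinb1, Serpinb3, Serpinb6 and Serpinb9 groups) can be higher than listed.

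Liver products were low throughout. Serpina1e had 31 reads in E18.5 replicate 2 and 0 in E18.5 replicate 1, and Serpina1a had 21 reads against 1. The 4 hepatocyte markers (Alb, Apoa1, Fgb and Ahsg) summed to 11.3 FPKM in the former sample and 1.68 in the latter, and their part in these reads was not tested. In the other samples the same markers summed to at most 2.93 FPKM, with Alb at 0 in P5 replicate 1 and both 4wk samples.

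The comparison of adult with embryonic glands asks which serpins differ between the mature and the forming gland. Among clades A and B 5 serpins rose and 3 serpins of clades E, H and I fell, where a gene is said to rise or fall if its mean log2(FPKM + 1) changed by at least 1 with an adjusted p below 0.1 (limma, Benjamini-Hochberg over the 14650 genes that reached 1 FPKM). The risers were Serpina3n, Serpinb11, Serpinb1a, Serpinb6a and Serpinb6b, 5 of the 20 tested, and 5.58% of all tested genes rose. The fallers were Serpine2, Serpinh1 and Serpini1, 3 of 20, while 38% of all tested genes fell. Genes that passed 1 FPKM in a single group could hardly do so without differing, so these shares describe the tested genes only. The median log2 fold change was -0.26 over the 20 serpins and -0.75 over all tested genes.

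That all-gene median depends on the scaling. Rescaling the FPKM by median-of-ratios factors (1.148 to 1.38 in the embryo, 1.031 and 1.089 at P5, 0.617 to 0.714 in the adult) moved it to -0.08, a shift of 0.68. After rescaling, the same 8 serpins still passed in the same direction, and Serpinb9 and Serping1 were added to the risers, for 7 risers and 3 fallers against 13.8% and 14.7% of all genes. The sign of Serpinf1 (-0.48, rescaled 0.44), Serpinb5 (-0.35, rescaled 0.25) and Serpinb1b (-0.18, rescaled 0.03) flipped, and none of these passed either way. The samples of the 2 stages did not overlap for 9 of the 20 serpins, compared with 60.3% of all genes, and among the 8 called they overlapped for Serpina3n and Serpinb11.

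**Figure D2:**
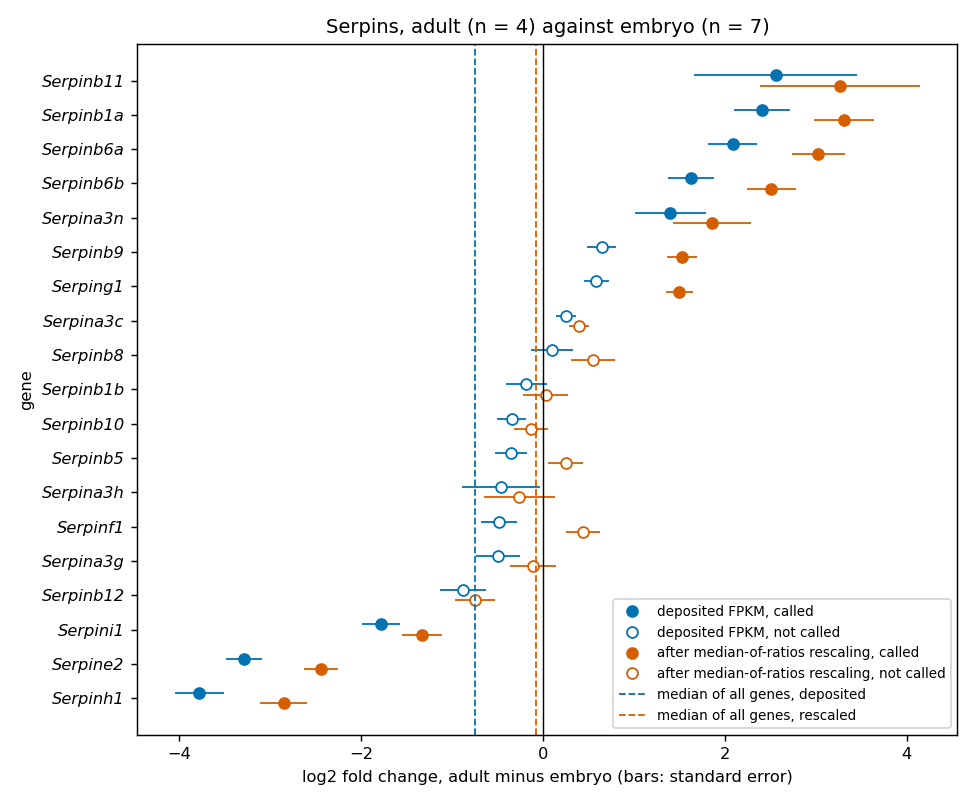
Log2 fold change of 19 of the 20 tested serpins in the adult (n = 4) against the embryo (n = 7), on log2(FPKM + 1), with bars for 1 standard error; filled points passed both thresholds, and dashed lines are the medians of all tested genes at -0.75 for the deposited and -0.08 for the rescaled values. Serpinh1, Serpine2 and Serpini1 lie at the low end on both scales, and Serpinb9 and Serping1 pass after rescaling.

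Serpinh1 (chr7:106493885-106501740, minus strand) encodes HSP47, which binds procollagen in the endoplasmic reticulum. Its FPKM was 576.1, 427.1 and 445.0 for E14.5, 349.8 and 367.8 for E16.5, 261.9 and 234.8 for E18.5, 132.1 and 123.5 for P5, 35.2 and 37.1 for 4wk, and 23.6 and 14.0 for 12wk. No 2 time points overlapped in range, and each was lower than the one before. It fell by 1.51 on the log2 scale from embryo to neonatal stage (SE 0.35, adjusted p = 0.0085 by limma), by a further 2.27 to the adult (SE 0.38, adjusted p = 0.00056), and thus by 3.78 from embryo to adult (SE 0.27, adjusted p = 5.4e-08). After rescaling the last value was -2.85. Of the steps between neighbouring time points, P5 to 4wk passed the thresholds (log2 fold change -1.79, SE 0.21, adjusted p = 6.1e-05).

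From embryo to adult 38% of all tested genes fell and 5.58% rose, with a median log2 fold change of -0.75. After rescaling these shares were 14.7% and 13.8%. Of 15 tested partners of HSP47 in collagen synthesis (collagens I and III, prolyl and lysyl hydroxylases and their helpers), 13 fell from embryo to adult and 0 rose, with a median log2 fold change of -2.55. After rescaling 9 fell and 1 rose. The steepest were Plod2, a lysyl hydroxylase (log2 fold change -4.31, SE 0.28, limma adjusted p = 2.3e-08), Col1a1, a collagen chain (-4.27, SE 0.39, adjusted p = 3.9e-07), and Fkbp10, a collagen chaperone (-4.06, SE 0.23, adjusted p = 6.8e-09). The 6 stroma markers include 3 collagens of the same list. They summed to 1860 to 2670 FPKM in the embryo and 258 to 520 in the adult, and none was at 0. On the deposited FPKM 5 of the 6 fell, where 38% of all tested genes did. Whether the gland held fewer stromal cells or less of this RNA per cell cannot be told apart in bulk tissue, which holds for every gene below, and the part of the stroma in the fall of Serpinh1 was not tested.

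Serpine2 (chr1:79790772-79855271, minus strand) encodes protease nexin-1, an inhibitor of thrombin and plasminogen activators bound to the cell surface and matrix. It was at 84.5, 62.4 and 64.6 FPKM for E14.5, 60.5 and 56.2 for E16.5, 43.8 and 44.9 for E18.5, 32.5 and 34.2 for P5, 7.28 and 6.11 for 4wk, and 4.5 and 3.12 for 12wk. The order was that of Serpinh1, with a lower range at every later time point. The log2 fold change was -3.29 (SE 0.2, limma adjusted p = 1.4e-08) from embryo to adult, or -2.44 after rescaling, and -2.51 (SE 0.28, adjusted p = 3.4e-05) from neonatal stage to adult.

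Serpini1 (chr3:75361469-75447417, plus strand) encodes neuroserpin, an inhibitor of tissue plasminogen activator. It was at 5.15, 4.91 and 5.34 FPKM for E14.5, 3.21 and 2.25 for E16.5, 3.15 and 3.23 for E18.5, 1.39 and 1.65 for P5, 0.0 and 0.642 for 4wk, and 0.541 and 0.438 for 12wk. All 7 embryonic samples were above both P5 samples and these above all 4 adult samples. It fell by 1.78 on the log2 scale from embryo to adult (SE 0.21, limma adjusted p = 3.2e-06), and its rescaled value was -1.33. Of the neuron markers Tubb3, Elavl4, Stmn2 and Snap25, 3 of 4 fell as well on the deposited FPKM, where 38% of all tested genes did. These markers summed to 26.2 to 94.0 FPKM in the embryo and 2.99 to 5.09 in the adult, with Elavl4 and Snap25 at 0 in 4wk replicate 1. Their part in the fall of Serpini1 was not tested.

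**Figure D3:**
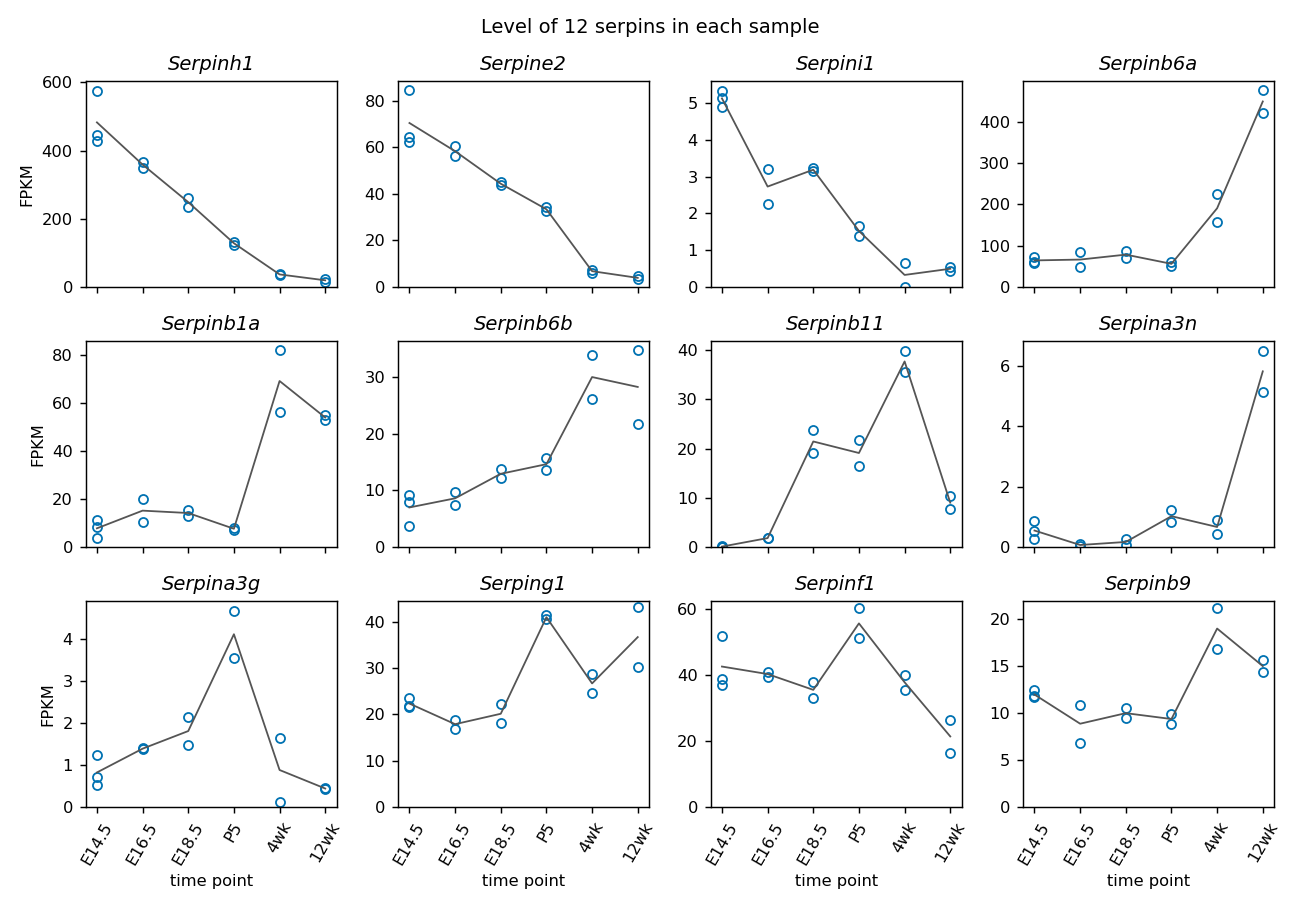
FPKM of 12 serpins in each sample, with 1 circle per sample and a line through the time point means, each panel on its own linear axis from 0. The means of Serpinh1 and Serpine2 decline at every step, Serpini1 is highest at E14.5, Serpinb6a is highest at 12wk with 477.8 and 421.5 FPKM, and Serpina3g is highest at P5 with 4.67 and 3.55 FPKM.

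Clade B held the main adult serpins. Serpinb6a (chr13:34009787-34094663, minus strand) was at 71.9, 61.2 and 58.4 FPKM for E14.5, 83.2 and 48.6 for E16.5, 68.9 and 86.9 for E18.5, 51.2 and 59.9 for P5, 156.3 and 224.6 for 4wk, and 477.8 and 421.5 for 12wk. Up to P5 all samples lay between 48.6 and 86.9 FPKM, and all 4 adult samples were above these, with no overlap between 4wk and 12wk. It rose by 2.09 on the log2 scale from embryo to adult (SE 0.27, limma adjusted p = 8.4e-06, rescaled 3.03), by 1.74 from P5 to 4wk (SE 0.25, adjusted p = 0.00019) and by 1.26 from 4wk to 12wk (SE 0.25, adjusted p = 0.0081). Without 4wk replicate 1 the last step was 1.0 (adjusted p = 0.059), just short of the size threshold.

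Serpinb1a (chr13:32933961-32943054, minus strand), an inhibitor of neutrophil elastase and related proteases, was at 3.62, 11.1 and 8.41 FPKM for E14.5, 19.99 and 10.2 for E16.5, 12.7 and 15.5 for E18.5, 7.11 and 7.96 for P5, 56.5 and 82.0 for 4wk, and 52.9 and 55.1 for 12wk. The 4 adult samples were all above the 9 others, and 4wk replicate 2 stood above the other 3. The step from P5 to 4wk had a log2 fold change of 3.02 (SE 0.39, limma adjusted p = 0.00011). From embryo to adult it was 2.41 (SE 0.31, adjusted p = 9.4e-06), rescaled 3.31.

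Serpinb6b (chr13:33057182-33070936, plus strand), a close relative of Serpinb6a, was at 3.74, 9.23 and 7.89 FPKM for E14.5, 9.66 and 7.47 for E16.5, 12.1 and 13.7 for E18.5, 13.5 and 15.7 for P5, 26.1 and 33.9 for 4wk, and 34.8 and 21.7 for 12wk. All 4 adult samples were above all others, and no single step between neighbouring time points passed the thresholds. From embryo to adult it rose by 1.63 on the log2 scale (SE 0.25, limma adjusted p = 5.2e-05, rescaled 2.51), with no overlap of the stages.

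Serpinb9 (chr13:33095119-33109826, plus strand), an inhibitor of granzyme B, was at 11.8, 12.4 and 11.7 FPKM for E14.5, 10.9 and 6.82 for E16.5, 9.47 and 10.5 for E18.5, 8.82 and 9.9 for P5, 16.8 and 21.2 for 4wk, and 15.6 and 14.4 for 12wk. All 4 adult samples were above all others. Its log2 fold change of 0.65 from embryo to adult (SE 0.16, limma adjusted p = 0.0017) was below the size threshold and became 1.53 after rescaling (adjusted p = 4.4e-06). The cytotoxic lymphocyte markers Cd3e, Cd8a, Nkg7 and Prf1 summed to 0.13 to 0.822 FPKM in the embryo and 1.36 to 4.24 in the adult. None of the 3 tested markers passed the thresholds, Prf1 was at 0 in 5 of the 13 samples, and their part was not tested.

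Serpinb11 (chr1:109258506-109277052, plus strand) followed another course. It was at 0.0305, 0.0232 and 0.0661 FPKM for E14.5, 1.82 and 1.72 for E16.5, 19.1 and 23.8 for E18.5, 16.4 and 21.8 for P5, 35.6 and 39.9 for 4wk, and 7.66 and 10.3 for 12wk. It thus appeared during embryonic development and was highest at 4wk. It rose by 1.41 on the log2 scale from E14.5 to E16.5 (SE 0.17, limma adjusted p = 0.00029) and by 3.01 from E16.5 to E18.5 (SE 0.18, adjusted p = 3.8e-06), and fell by 1.97 from 4wk to 12wk (SE 0.18, adjusted p = 7.7e-05). Its log2 fold change of 2.56 from embryo to adult (SE 0.9, adjusted p = 0.018) averages over this course, the stages overlapped, and with 12wk as the only adult age it was 1.58 with an adjusted p of 0.25.

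Serpinb12 (chr1:108831026-108853657, plus strand), an inhibitor of trypsin-like proteases from the same array, was low at E14.5 as well but was at or near 0 after birth. It was at 0.149, 0.455 and 0.431 FPKM for E14.5, 2.35 and 1.04 for E16.5, 1.69 and 0.64 for E18.5, 0.0358 and 0.0273 for P5, and had no read in any of the 4 adult samples. Over the adult group 3 reads would be 0.027 FPKM, against 1.03 FPKM in the pooled embryonic samples. On the deposited FPKM it was thus at least 38.0-fold higher in the embryo, a bound that the rescaling factors would lower. Its change on log2(FPKM + 1) from embryo to adult was -0.88 (SE 0.25, limma adjusted p = 0.005), or -0.75 after rescaling, below the size threshold both times. Serpinb12 reached 1 FPKM in 3 samples, all embryonic, so it was tested only through the stage where it is high. On log2(FPKM + 1), which compresses such low values, it fell by 1.03 from E18.5 to P5 (SE 0.26, limma adjusted p = 0.022), a call that was lost after rescaling (-0.91) and without E18.5 replicate 1 (-0.67, adjusted p = 0.16). Without either P5 replicate the fold change kept its size (-1.03 and -1.02), with adjusted p = 0.12 and 0.11. From E14.5 to E16.5 its change was 0.97 (adjusted p = 0.02), just under the size threshold.

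The remaining clade B serpins were low. Serpinb8, an inhibitor of furin, was at 0.631, 0.336 and 0.296 FPKM for E14.5, 0.679 and 0.913 for E16.5, 1.74 and 1.57 for E18.5, 2.47 and 2.88 for P5, 0.993 and 1.72 for 4wk, and 0.697 and 0.545 for 12wk. Both P5 samples were above all others, and the log2 fold change of 1.02 from embryo to neonatal stage (SE 0.29, limma adjusted p = 0.021) sat at the threshold and was lost when any single E14.5 or P5 sample was left out, where it lay between 0.94 and 1.1. Serpinb5 (maspin, a serpin of epithelial cells) ranged from 0.971 to 3.26 FPKM with its highest value in P5 replicate 2. Serpinb10 (bomapin, known from blood cell precursors) ranged from 0.0 to 1.14 with its highest value in the same sample. Serpinb1b, a relative of Serpinb1a, ranged from 0.0 to 1.4 FPKM and reached 1 FPKM in 4wk replicate 1 alone.

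Promoter sequences of the serpins at the ends of this range are shown because the fallers Serpinh1 and Serpine2 and the clade B genes Serpinb6a, Serpinb6b and Serpinb11 moved in opposite directions over the same samples. They are the 250 bases before the start site in the RefSeq promoter table for mm9, where 52 of the 62 serpins had an entry and Serpinb1a had none. Capitals mark the GC box GGGCGG or the CCAAT box (CCAAT), on either strand. The windows are chr7:106501750-106501999 (minus strand) for Serpinh1, chr1:79855241-79855490 (minus) for Serpine2, chr13:34094664-34094913 (minus) for Serpinb6a, chr13:33056880-33057129 (plus) for Serpinb6b and chr1:109258641-109258890 (plus) for Serpinb11. Serpinb6a had 2 start sites in the promoter table, and the outermost was taken. The Serpinb11 window lies wholly inside the gene span given above, and that of Serpine2 in part. The annotation behind those spans starts both genes further upstream, so these windows do not precede every annotated start.
Serpinh1: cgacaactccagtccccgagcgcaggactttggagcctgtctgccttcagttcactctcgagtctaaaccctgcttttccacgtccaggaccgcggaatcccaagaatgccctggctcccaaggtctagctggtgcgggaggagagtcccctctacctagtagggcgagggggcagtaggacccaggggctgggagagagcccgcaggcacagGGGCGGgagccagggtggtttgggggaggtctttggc
Serpine2: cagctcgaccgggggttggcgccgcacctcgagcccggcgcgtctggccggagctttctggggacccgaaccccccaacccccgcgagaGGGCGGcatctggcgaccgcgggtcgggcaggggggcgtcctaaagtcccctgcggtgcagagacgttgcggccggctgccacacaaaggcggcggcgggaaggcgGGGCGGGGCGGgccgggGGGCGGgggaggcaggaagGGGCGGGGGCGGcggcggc
Serpinb6a: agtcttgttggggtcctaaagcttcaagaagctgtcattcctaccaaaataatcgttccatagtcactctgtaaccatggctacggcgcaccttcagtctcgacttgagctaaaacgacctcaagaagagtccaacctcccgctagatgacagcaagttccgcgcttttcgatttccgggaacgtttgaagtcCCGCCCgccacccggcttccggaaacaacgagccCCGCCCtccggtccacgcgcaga
Serpinb6b: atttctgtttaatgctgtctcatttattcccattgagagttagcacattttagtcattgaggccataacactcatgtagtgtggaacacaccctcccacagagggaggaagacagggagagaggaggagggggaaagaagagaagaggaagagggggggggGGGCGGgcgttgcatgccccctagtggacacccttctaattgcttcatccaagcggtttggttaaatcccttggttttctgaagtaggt
Serpinb11: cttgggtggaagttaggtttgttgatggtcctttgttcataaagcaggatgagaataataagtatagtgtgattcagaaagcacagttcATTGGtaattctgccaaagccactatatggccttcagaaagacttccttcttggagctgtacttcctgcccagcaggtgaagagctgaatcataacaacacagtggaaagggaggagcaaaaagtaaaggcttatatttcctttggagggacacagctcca
The Serpine2 window held 6 GC boxes, 2 of which overlap by 1 base, and 34 CpG sites at 78.8% GC. That of Serpinb6a held 2 GC boxes and 20 CpG sites, and those of Serpinh1 and Serpinb6b 1 GC box each with 11 and 3 CpG sites. Serpinb11 had 0 CpG sites, 42.8% GC and 1 CCAAT box. Neither TATAAA nor the heat shock element GAANNTTC was found in any of the 5 windows. Over 32851 windows of this length the median was 6 CpG sites and 52.4% GC, and 32.7% held GGGCGG, 33.8% CCAAT, 12.4% TATAAA and 6.69% GAANNTTC. A match is a run of letters and was not tested as a binding site.

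The 4 expressed clade A serpins belong to the Serpina3 group, whose human counterpart is antichymotrypsin. Among them, Serpina3h is labelled a processed transcript in GENCODE M1, and the others are labelled protein coding. The time point with the highest mean was E14.5 for Serpina3h, P5 for Serpina3c and Serpina3g, and 12wk for Serpina3n. Serpina3n (chr12:105644939-105652539, plus strand), an inhibitor that includes granzyme B among its targets, was at 0.249, 0.851 and 0.52 FPKM for E14.5, 0.106 and 0.0129 for E16.5, 0.0553 and 0.266 for E18.5, 0.814 and 1.22 for P5, 0.412 and 0.904 for 4wk, and 6.51 and 5.15 for 12wk. The 12wk samples stood above all 11 others, whereas the 4wk samples lay within the range of the younger ones. It rose by 2.05 on the log2 scale from 4wk to 12wk (SE 0.23, limma adjusted p = 0.00025), and the change of 1.4 from embryo to adult (SE 0.39, adjusted p = 0.0049) was 2.42 with 12wk as the only adult age.

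Serpina3g (chr12:105474455-105480149, plus strand), a serpin that acts inside the cell on cathepsins, was at 0.518, 0.708 and 1.23 FPKM for E14.5, 1.38 and 1.39 for E16.5, 1.47 and 2.14 for E18.5, 4.67 and 3.55 for P5, 1.63 and 0.125 for 4wk, and 0.434 and 0.439 for 12wk. It was highest at P5, above every embryonic and adult sample. The log2 fold change was 1.2 from embryo to neonatal stage (SE 0.3, limma adjusted p = 0.012) and -1.69 from there to the adult (SE 0.33, adjusted p = 0.0014). Without P5 replicate 1 the former was 1.04 with an adjusted p of 0.15.

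Serpina3h (chr12:105486115-105491879, plus strand) was at 0.126, 3.94 and 3.01 FPKM at E14.5 and at most 0.425 FPKM in every later sample. Of the later samples, E16.5 had 0.0538 and 0.0915, E18.5 0.0843 and 0.0902, P5 0.272 and 0.15, 4wk 0.0 and 0.0, and 12wk 0.425 and 0.377 FPKM. Its expression was thus carried by 2 of the 3 E14.5 samples. It reached 1 FPKM in these alone, so it was tested only through the group where it is high, and the filter itself favours a fall from E14.5. E14.5 replicate 1 stood apart from the other E14.5 samples over all genes too. Its correlation on the log2 scale was 0.985 with replicate 2 and 0.987 with replicate 3, against 0.998 between replicates 2 and 3. Replicate pairs of the other time points ranged from 0.974 (4wk) to 0.996 (P5), so such values were not unusual in the series. The log2 fold change of -1.39 from E14.5 to E16.5 (SE 0.46, limma adjusted p = 0.06) was lost without E14.5 replicate 2 or 3 (-0.99 and -1.14, adjusted p = 0.16 and 0.17). Without either E16.5 sample it kept its size (-1.37 and -1.42), with adjusted p = 0.2 and 0.15. E14.5 replicate 1 was also low for the 4 mast cell markers (Cma1, Mcpt4, Tpsb2 and Cpa3), which summed to 9.16 FPKM there with Mcpt4 at 0, to at most 130 FPKM in the other E14.5 samples, to 138 and 186 at E16.5 and to 247 and 331 at E18.5. Their part was not tested. Serpina3c, known as kallikrein-binding protein, ranged from 0.0 to 1.0 FPKM with its highest value in P5 replicate 1.

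**Figure D4:**
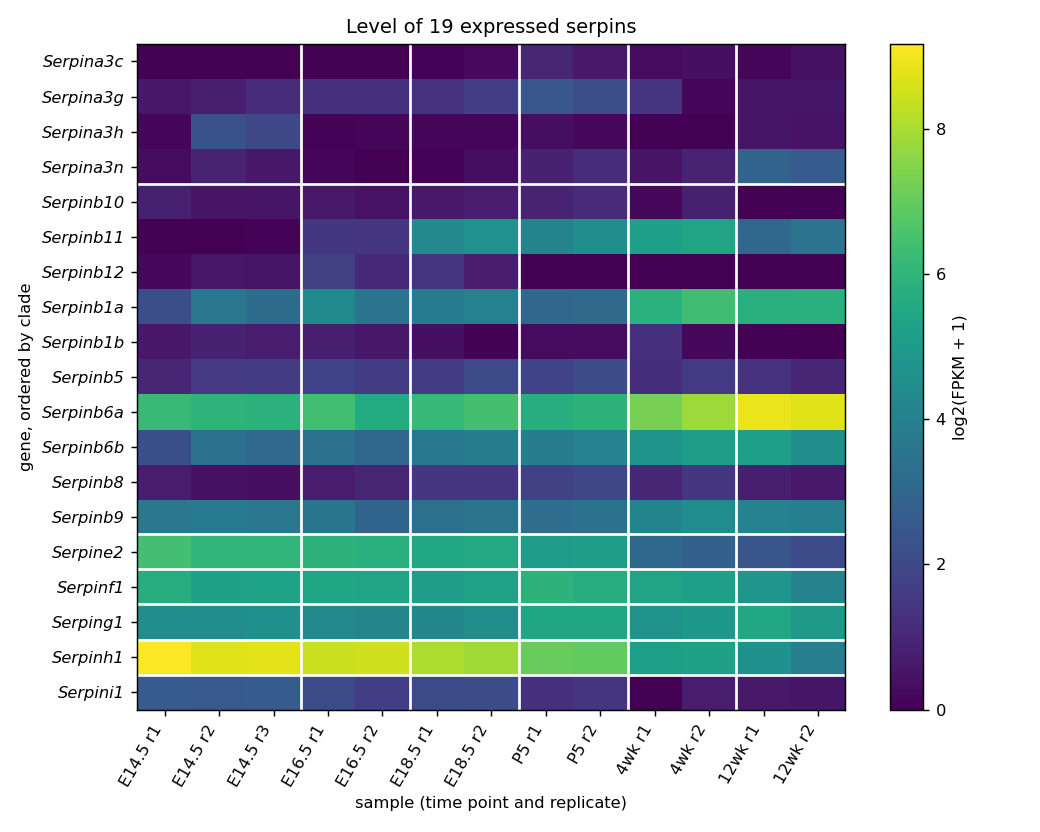
Log2(FPKM + 1) of 19 of the 20 expressed serpins in each of the 13 samples, with genes ordered by clade and white lines between clades and time points. Serpinh1 darkens from left to right, from 576.1 to 14.0 FPKM, while Serpinb6a brightens in the 4 adult columns. Serpina3h is dark throughout, though less so in 2 E14.5 columns with 3.94 and 3.01 FPKM.

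Serping1 and Serpinf1, the abundant secreted serpins of clades G and F, were present at 16.3 to 60.3 FPKM in every sample. Serping1 (chr2:84605544-84615601, minus strand), the inhibitor of complement C1, was at 21.5, 21.8 and 23.6 FPKM for E14.5, 18.8 and 16.9 for E16.5, 18.0 and 22.2 for E18.5, 41.4 and 40.5 for P5, 24.6 and 28.7 for 4wk, and 43.1 and 30.2 for 12wk. All postnatal samples were above all embryonic ones. The rise of 1.0 on the log2 scale from E18.5 to P5 (SE 0.17, limma adjusted p = 0.003) sat at the threshold, and was 0.86 without E18.5 replicate 1 and 0.98 without P5 replicate 1. From embryo to adult the value was 0.59 (SE 0.14, adjusted p = 0.0021), below the size threshold, and 1.5 after rescaling (adjusted p = 2.4e-06).

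Serpinf1 (chr11:75223271-75236203, minus strand) encodes pigment epithelium-derived factor, an antiangiogenic protein that inhibits no protease. It was at 52.0, 37.1 and 38.8 FPKM for E14.5, 41.1 and 39.6 for E16.5, 33.2 and 37.9 for E18.5, 60.3 and 51.2 for P5, 40.2 and 35.5 for 4wk, and 26.5 and 16.3 for 12wk. The embryonic and adult ranges overlapped, and none of the 8 comparisons passed the thresholds, with or without rescaling. The log2 fold change from 4wk to 12wk was -0.83 (SE 0.21, limma adjusted p = 0.03). With 12wk as the only adult age, Serpinf1 was lower in the adult than in the neonatal stage by a log2 fold change of -1.37 (adjusted p = 0.0013).

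Of the other comparisons, neonatal against embryo had 3 risers among the 20 serpins (Serpina3g and Serpinb8 among them, with 4.14% of all tested genes) and 1 faller (Serpinh1, with 8.14%). Rescaling added Serping1 as a riser, for 4 risers and 1 faller against 5.55% and 3.9% of all genes. Adult against neonatal had 2 risers (Serpinb1a and Serpinb6a, 2.31% of all genes) and 4 fallers (Serpina3g, Serpine2 and Serpinh1 among them, 20.8%), and became 4 and 4 after rescaling with Serpinb6b and Serpinb9, against 6.05% and 8.53%. From E14.5 to E16.5 there were 1 riser and 1 faller (4.17% and 0.983% of all genes), and from E16.5 to E18.5 1 riser and 0 fallers (1.09% and 1.85%). The faller, Serpina3h, reached 1 FPKM at E14.5 alone, so that count is not independent of the filter. From E18.5 to P5 there were 2 risers and 1 faller (2.07% and 2.97%), or 2 and 0 after rescaling (2.37% and 1.79%), and from P5 to 4wk 2 risers and 4 fallers (2.19% and 22.1%), or 5 and 4 after rescaling with Serpinb11, Serpinb6b and Serpinb9 (6.37% and 8.72%). From 4wk to 12wk there were 2 risers and 1 faller (2.68% and 2.48%).

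The proteases and partners of the serpins were tested in the same fit. Of 18 target proteases 2 rose and 5 fell from embryo to adult, with a median log2 fold change of -0.49, and 6 rose and 3 fell after rescaling. Over all tested genes 5.58% rose and 38% fell with a median of -0.75, and after rescaling 13.8% rose and 14.7% fell. These shares are the background for each of the lists. They were led by the kallikrein Klk1 (log2 fold change 9.75, SE 0.99, limma adjusted p = 9.9e-07), which has close copies, the mast cell chymase Cma1 (-3.98, SE 0.68, adjusted p = 0.00012) and tissue plasminogen activator Plat (-3.13, SE 0.26, adjusted p = 1.9e-07). Plat, a target of Serpine2 and Serpini1, thus fell along with Serpine2 and Serpini1. Of 8 partners and clearance receptors 1 rose and 3 fell, namely Vtn (-1.9), a plasma and matrix protein, and the endocytic receptors Lrp1 (-1.73) and Vldlr (-1.73). After rescaling Lrp1 (-0.88) and Vldlr (-0.99) were below the size threshold, and 2 of the 8 rose and 1 fell.

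Of 12 lysosomal cathepsins, among which are targets of intracellular serpins, 2 rose and 2 fell with a median of -0.06, and 5 rose and 1 fell after rescaling, where all tested genes had 5.58% rising and 38% falling with a median of -0.75, and 13.8% and 14.7% after rescaling. Ctsd (log2 fold change 1.85, SE 0.2, limma adjusted p = 1.7e-06) and Ctss (1.49, SE 0.21, adjusted p = 2.3e-05) rose, and Ctsk (-2.33, SE 0.34, adjusted p = 2.7e-05), an osteoclast and fibroblast protease, fell. Of 17 protease inhibitors of other families 2 rose and 6 fell with a median of -0.62, close to the 38% falling and the median of -0.75 of all tested genes, and 6 rose and 4 fell after rescaling. Cystatin Cst10 rose (4.52, SE 1.61, adjusted p = 0.02), with means of 785.7 ± 1360 FPKM (SD, n = 4) in the adult and 103.4 ± 8.39 (SD, n = 2) at P5. An SD so far above the mean requires a single adult sample to hold most of the sum, so the mean does not describe the others. Reck (-2.73, SE 0.18, adjusted p = 3.1e-08), a membrane inhibitor of metalloproteases, and Tfpi (-2.15, SE 0.14, adjusted p = 2.6e-08), the tissue factor pathway inhibitor, fell.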

How the data were processed

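RNA of whole submandibular glands was sequenced as 50 bp single-end reads in 13 samples. By the methods and the submitters' processing notes, the authors aligned the reads to mm9 (TopHat2 2.0.13 with Bowtie2 2.2.6), assigned them to UCSC genes by featureCounts, dropping any read that hit several places or genes, and deposited FPKM derived with DESeq2 1.10.1. Strand use is not given in the sources used here. The FPKM were steps of whole reads (tolerance 1e-06) scaled to each sample's total, which gave the depth. The methods instead name median normalization by DESeq, which the deposited values did not follow. No count model was fitted.

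The 14650 genes that reached 1 FPKM in any sample were tested on log2(FPKM + 1) using limma 3.58.1 (R 4.3.3, eBayes with trend). A fit with the 3 stages as groups gave 3 comparisons, and a fit with the 6 time points gave 5. Adjusted p-values are Benjamini-Hochberg over all tested genes, with the thresholds of the study. Fold changes on this scale understate those of low genes. P-values measure the spread between these samples, and those between stages treat ages as replicates. The code was tested on simulated data.

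The members at 1 FPKM are named, except 1 that is counted but not reported here by name, with every sample's value where a time point mean reached 5 FPKM or a comparison passed, and for each pathway list the 3 largest changes among those that passed. The members and lists were chosen with earlier results of these data known. Alternatives changed the pseudocount (0.1), the filter, the scaling, the p threshold (0.05), the variance trend, the weight of time points and the samples (each left out in turn, and a replicate block). Taking 12wk as the only adult age was chosen after seeing the data. Positions are from GENCODE M1 (61 of 62 members, Serpinb10 without one). Tables used Python 3.11.15, numpy 2.4.6 and pandas 2.3.3, and figures matplotlib 3.10.9.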

Additional observations from a re-analysis of the deposited data

Results flagged for a closer look

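In groups of 4 to 10 samples, the highest or lowest value stood apart from the others by more than Dixon's 95% critical value in 4 of 39 tested groups of the 20 serpins, where chance alone gives about 1 in 20. That rate holds for samples of a single population, whereas the groups used, the 7 embryonic and the 4 adult samples, mix ages. A change with age can therefore be flagged as well. Serpinb1a was at 82.0 FPKM in 4wk replicate 2 and at 52.9 to 56.5 in the other adult samples, and Serpinb1b at 1.4 FPKM in 4wk replicate 1 and at 0.0 to 0.146 in the other adult samples. Serpinf1 was at 52.0 FPKM in E14.5 replicate 1 and at 33.2 to 41.1 in the other embryonic samples, and Serpina3c at 0.164 FPKM in E18.5 replicate 2 and at 0.0 to 0.0682 in the others.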

How the results depend on the processing

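No fold change of the serpins named above as passing changed its sign when single samples were left out. From embryo to adult the same held with the pseudocount of 0.1, the rescaling and the replicate block. The number of serpins past the thresholds, 4 for neonatal against embryo, 6 for adult against neonatal, 8 for adult against embryo, 2 for E16.5 against E14.5, 1 for E18.5 against E16.5, 3 for P5 against E18.5, 6 for 4wk against P5 and 3 for 12wk against 4wk, was 7, 11, 13, 4, 1, 5, 11 and 6 with a pseudocount of 0.1. For E16.5 against E14.5 it was 1 without a filter and 1 at an adjusted p below 0.05. With each sample left out in turn it lay between 1 and 6, 6 and 8, 8 and 8, 1 and 3, 1 and 1, 1 and 4, 6 and 9, and 2 and 5. It was 1 for neonatal against embryo and for P5 against E18.5 without P5 replicate 1, 1 for the latter without E18.5 replicate 1, 1 for E16.5 against E14.5 without E16.5 replicate 1, and 5 for 12wk against 4wk without 12wk replicate 1. In those with 1 sample left at a time point, that sample is assumed to vary like the others. Without 4wk replicate 2, Serpina3g missed the thresholds in 4wk against P5 (-0.95).

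With 12wk as the only adult age, the 3 stage comparisons gave 4, 9 and 7 serpins. Rescaling changed the share of risers among the called serpins from 33.3% to 50% (adult against neonatal), 66.7% to 100% (P5 against E18.5) and 33.3% to 55.6% (4wk against P5), and the genes called of all tested from 6385 to 4166 (adult against embryo), 3385 to 2136 (adult against neonatal) and 3556 to 2211 (4wk against P5). The pseudocount of 0.1 changed adult against neonatal to 5320, 4wk against P5 to 5767, E16.5 against E14.5 from 755 to 1183, P5 against E18.5 from 738 to 1163 and 12wk against 4wk from 755 to 1658.

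Same-numbered samples of different time points did not deviate together on average (mean correlation of their deviations -0.016 over 30 pairs, 0.012 over 40 pairs of different numbers). Single pairs ranged from -0.352 to 0.273 and from -0.273 to 0.352. Where a time point has 2 samples, their deviations are exact opposites, so these 2 sets mirror each other. The check therefore cannot tell whether particular time points shared a batch. A replicate block gave 4, 6, 8, 2, 1, 3, 6 and 3 serpins, with Serping1 in place of Serpinb8 in neonatal against embryo and Serpinb12 in place of Serpina3h in E16.5 against E14.5. Depth limits the 4wk samples most, where 1 read on 1 kilobase is 0.1257 or 0.1719 FPKM.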
